A study of Mus musculus with 6 samples.

Results

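The genes described here are 8 transcripts tied to cholesterol synthesis and to SREBP2, the transcription factor that turns the pathway on. They were chosen by name, with earlier results of these data known, so shares called among them are description only. Each matched 1 row of the authors' deposited table, 8 of 37757 rows in all and 8 of the 14748 rows that the authors tested. Of these genes, 7 encode enzymes of the pathway (Acat2, Hmgcs1, Idi1, Fdft1, Sqle, Lss and Cyp51), and Insig1 encodes a protein that holds SREBP2 back. The cells were kidney epithelial cells of C57/Bl6J mice 8 weeks old with the genotype Bim-/- Bmf-/-, which both conditions share, so no cells with intact Bim and Bmf enter the comparison. Bim and Bmf are proteins that start apoptosis, and their loss is used to study cells that survive detachment. Messenger RNA was sequenced from 3 libraries of attached cells and 3 libraries of cells held in suspension for 4 h, a state that the labels name for anoikis, the death of cells that have lost their anchorage. The table gives 1 FPKM per gene and condition (fragments scaled to transcript length and to library size), so no spread between libraries can be given and the depth is unknown. Its condition names end in letters, of which A was taken to mean attached and S suspended. Whether the libraries came from separate cultures or animals is not stated, so the authors' p-values may measure technical spread only.

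Cells build cholesterol from acetyl-CoA. The early steps make mevalonate, isoprenoids and then squalene, Sqle and Lss close squalene into the first sterol, lanosterol, and a last group of enzymes turns lanosterol into cholesterol. When sterols are low, the escort protein SCAP carries SREBP2 from the endoplasmic reticulum to the Golgi, where proteases release the part that enters the nucleus and switches on these enzymes. When sterols are high, INSIG proteins hold SCAP in place, while oxysterols activate LXR, which switches on exporters such as Abca1. Insig1 is itself a target of SREBP2, and in kidney tubule cells the pathway works beside the uptake of lipoprotein cholesterol.

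After 4 h in suspension these genes did not move as 1 block. Insig1 rose, Hmgcs1 was called slightly higher, Acat2, Sqle, Lss and Cyp51 fell, and Idi1 and Fdft1 were not called. A gene is called here when the authors' q, their p adjusted for the number of tests, is below 0.05. Thus 6 of 8 genes were called, 2 higher and 4 lower, in a table in which 51.0% of tested rows were called, 24.7% higher and 26.3% lower. The median log2 fold change (suspended over attached) was -0.28 over the 8 genes and -0.037 over all tested rows with a finite fold change. It was -0.11 over rows of at least 1 FPKM in both conditions, a level that all 8 genes exceed. Their log2 fold changes spanned -1.51 to 1.18, and 3 of the 8 reached 2-fold (Insig1, Lss and Acat2). Calls that were also at least 2-fold made up 19.5% of tested rows. The RNA is from bulk cells, in which a smaller share of cells carrying a transcript and less of it per cell cannot be told apart.

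**Figure D1:**
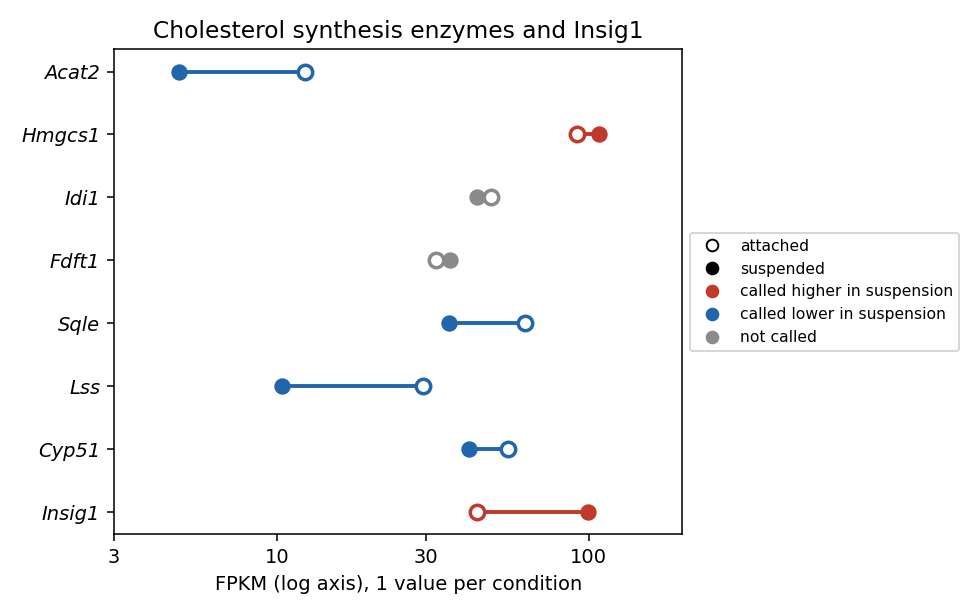
FPKM of the 8 genes in attached cells (open circles) and suspended cells (filled circles) drawn on a log axis from the authors' deposited table, a single value for each condition with no error bar; rows follow the pathway, with Insig1 last, and colours give the call. Insig1 moves from 43.9 to 99.4 FPKM and Hmgcs1 from 91.9 to 108, while Acat2, Sqle, Lss and Cyp51 move left and Idi1 and Fdft1 hardly move.

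The promoters of 4 of these genes are shown because they belong to both called genes that were higher (Insig1, Hmgcs1) and to the pair that fell furthest (Lss, Acat2). Each runs 5′ to 3′ on the gene's strand (RefSeq, GRCm38.p6) and ends before the first annotated transcript base in RefSeq and GENCODE M21. The stretches are chr5:28071162-28071362 on the plus strand for Insig1, chr13:119690101-119690350 on the plus strand for Hmgcs1, chr10:76531355-76531587 on the plus strand for Lss and chr17:12960748-12960975 on the minus strand for Acat2. Capitals mark every match, on either strand, to 4 motifs. These are the NF-Y box, CCAAT; the box of the factor Sp1, GGGCGG; the palindromic E-box, CACGTG; and a short form of the sterol regulatory element that SREBPs bind, TCACNCCAC.
Insig1: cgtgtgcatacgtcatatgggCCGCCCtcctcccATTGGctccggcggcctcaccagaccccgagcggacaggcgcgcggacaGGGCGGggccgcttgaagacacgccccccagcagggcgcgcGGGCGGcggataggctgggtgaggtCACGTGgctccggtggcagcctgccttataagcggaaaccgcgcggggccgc
Hmgcs1: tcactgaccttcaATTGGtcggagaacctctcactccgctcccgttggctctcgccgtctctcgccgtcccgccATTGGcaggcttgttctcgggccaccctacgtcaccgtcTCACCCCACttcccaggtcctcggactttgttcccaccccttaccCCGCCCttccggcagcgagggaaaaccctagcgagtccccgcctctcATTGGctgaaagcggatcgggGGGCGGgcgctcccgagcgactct
Lss: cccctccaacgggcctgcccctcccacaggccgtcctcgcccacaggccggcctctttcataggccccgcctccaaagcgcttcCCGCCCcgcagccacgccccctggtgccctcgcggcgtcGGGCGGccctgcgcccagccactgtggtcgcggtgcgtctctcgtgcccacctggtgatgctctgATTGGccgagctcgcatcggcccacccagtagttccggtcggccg
Acat2: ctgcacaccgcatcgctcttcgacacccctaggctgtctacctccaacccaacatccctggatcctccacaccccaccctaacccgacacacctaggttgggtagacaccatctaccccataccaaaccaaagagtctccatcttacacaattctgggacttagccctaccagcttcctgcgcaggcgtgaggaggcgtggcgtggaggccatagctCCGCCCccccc
Motifs were counted in windows of 300 bases, from 250 before to 50 after the RefSeq start, for 6 of the 8 genes (not Fdft1 and Sqle). The Hmgcs1 window held 1 match to TCACNCCAC, 137 bases before the start, 4 CCAAT boxes and 3 Sp1 boxes. TCACNCCAC was found in 1.24% of all 32851 mouse promoter windows. It was added to the search after these sequences were seen, so that share does not measure how unusual the match is. Of all windows, 3.37% held 3 or more CCAAT boxes. The Insig1 window held 1 CCAAT box, 3 Sp1 boxes and 1 CACGTG, which 7.15% of windows hold. The Lss window held 1 CCAAT box and 2 Sp1 boxes, and that of Acat2 held 1 Sp1 box and no CCAAT. The NF-Y box was present in 5 of the 6 windows against 37.4% of all windows, and GGGCGG in 6 of 6 against 35.7%. All windows were used without matching for expression or base content, so these shares do not show that the motifs are particular to the pathway. A longer form of the element, which contains the shorter one, was in none of the 6 and in 0.234% of all windows. A match describes letters only, and its absence says only that these letters are not in this window.

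Acat2 encodes the cytosolic thiolase that joins 2 acetyl-CoA molecules, the entry to the pathway. Its transcript had 12.3 FPKM attached and 4.84 suspended per the authors' deposited table, a 2.55-fold lower level (log2 fold change -1.35, q = 0.000185). It had the lowest level of the 8 genes in both conditions. The row spans chromosome 17, positions 12942890 to 12960747 (mm10), the full annotated gene. The mouse genome holds a close copy beside it, Acat3, at 13.7 FPKM attached and 7.90 suspended (q = 0.172) per the authors' deposited table. Reads from near-identical genes can be split between their rows, so the Acat2 values carry that uncertainty.

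Hmgcs1, the cytosolic HMG-CoA synthase, had the highest level of the 8 genes in both conditions. It stood at 91.9 FPKM attached and 108 suspended per the authors' deposited table, 1.18-fold higher (log2 0.24, q = 0.0491). The authors' p of 0.0236 implies a standard error of about 0.10 on the log2 scale and an approximate 95% interval of 0.032 to 0.44 (a normal approximation made from their p). The q lay just under the threshold, and the call was lost at q below 0.01. Recomputing the adjustment gave a Benjamini-Hochberg q of 0.0463 over the tested rows, and 0.0442 over rows of at least 1 FPKM in both conditions. Both use the same p-values and gave a smaller q, so they add no support to this call. The row lies on chromosome 13, positions 119690462 to 119708086 (mm10), within the annotated gene, whose span overlaps that of an annotated antisense RNA.

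The isoprenoid steps held both genes that were not called. Idi1, which isomerises isopentenyl diphosphate, was measured at 48.7 FPKM attached and 43.9 suspended per the authors' deposited table (log2 -0.15, q = 0.27). The interval implied by the authors' p ran from -0.37 to 0.068 on the log2 scale and takes in 0. Its row is on chromosome 13, positions 8885501 to 8892451 (mm10). The copy Idi2 was listed at 0 in both conditions per the authors' deposited table. Fdft1, squalene synthase, the first enzyme committed to sterols, stood at 32.3 FPKM attached and 36.0 suspended per the authors' deposited table (log2 0.16, q = 0.673). Its implied interval was wider, from -0.38 to 0.70, with a standard error of 0.28 where the median of rows with a mean of 20 to 100 FPKM was 0.13. The deposited row of Fdft1 covers chromosome 14, positions 63122462 to 63177793 (mm10), which takes in the neighbouring gene Ctsb as well. Fdft1 and Ctsb run on opposite strands and share 774 bases at their 3′ ends. Ctsb, the lysosomal protease cathepsin B, went from 94.9985 to 173 FPKM (q = 0.000185) in its own row of the authors' deposited table. Whether strand was used in counting is not given in the sources used here, so the Fdft1 values are uncertain, and the part of Ctsb in them was not tested.

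Squalene processing fell at both of its steps. Sqle, squalene epoxidase, a rate-limiting enzyme of the later pathway, went from 62.3 to 35.7 FPKM per the authors' deposited table, 1.74-fold lower (log2 -0.80, q = 0.000185). It was the second highest of the 8 genes in attached cells and the sixth in suspended cells. Its row is on chromosome 15, positions 59315077 to 59331192 (mm10), and overlaps no other annotated gene. Lss, lanosterol synthase, which closes the 4 sterol rings, went from 29.5 to 10.4 FPKM per the authors' deposited table, 2.84-fold lower (log2 -1.51, q = 0.000185). No other gene of the 8 fell as far, and 3.47% of tested rows with a finite fold change had a lower value. The row covers chromosome 10, positions 76531588 to 76562226 (mm10), and reaches 5088 bases past the annotated end of Lss over the antisense RNA 4930483K19Rik. That RNA was listed at 0.256 FPKM attached and 0.0679 suspended per the authors' deposited table. Lss and Fdft1 were measured with less precision than the other 6 genes: a unit of the authors' test score stood for 0.46 of log2 change at Lss and 0.49 at Fdft1, against 0.18 to 0.26 at the others. The 90th percentile of that measure among rows with a mean of 20 to 100 FPKM was 0.35.

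Cyp51, the demethylase that acts first on lanosterol, went from 54.9965 to 41.2 FPKM per the authors' deposited table, 1.33-fold lower (log2 -0.42, q = 0.0116). The interval implied by the authors' p ran from -0.70 to -0.13, with a standard error of 0.15. Their test score was -1.68, or 0.25 of log2 change per unit of score, so this interval may be too narrow. Read on a normal scale, that score would give an interval that includes no change. The row is on chromosome 5, positions 4081145 to 4104746 (mm10), and its 3′ end overlaps 166 bases of Akap9, which stood at 13.4 and 13.3 FPKM (q = 0.967) per the authors' deposited table. Cyp51 therefore fell less than Lss, the enzyme just before it, although this difference between 2 genes was not tested.

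Insig1 rose most of the 8 genes. This protein of the endoplasmic reticulum retains SCAP and SREBP2. It went from 43.9 FPKM attached to 99.4 suspended per the authors' deposited table, 2.26-fold higher (log2 1.18, q = 0.000185). Its row is on chromosome 5, positions 28071363 to 28078662 (mm10), the full annotated gene, with no overlapping gene. In attached cells Insig1 was the fifth of the 8 by FPKM, between Idi1 and Fdft1, and in suspended cells the second, next to Hmgcs1. With 1 value per condition, it cannot be said which neighbours in these orders differ beyond their spread. SREBP2 activates the enzymes above as it does Insig1. Of these enzymes, Acat2, Sqle, Lss and Cyp51 were lower, Hmgcs1 was slightly higher, and Idi1 and Fdft1 were not called. Of all tested rows with a finite fold change, 86.8% had a lower log2 fold change than Insig1.

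**Figure D2:**
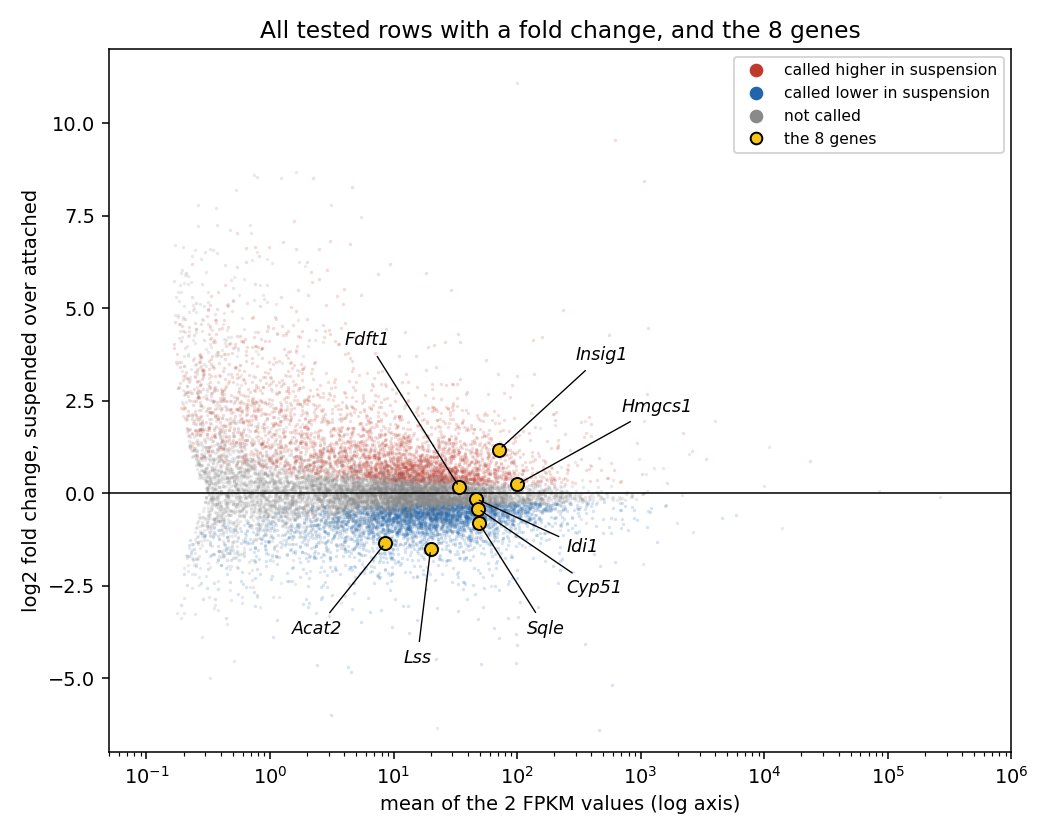
Each point is a tested row of the authors' deposited table with a finite fold change, placed by the mean of its 2 FPKM values (log axis) and its log2 fold change (suspended over attached), and coloured by call; the 8 genes are yellow. Lss and Acat2 sit at -1.51 and -1.35, Insig1 at 1.18, and Idi1 and Fdft1 at -0.15 and 0.16.

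The median log2 fold change of rows of at least 1 FPKM in both conditions was -0.11. Relative to that shift the 8 genes kept their directions: Insig1 stood at 1.29, Hmgcs1 at 0.34, Fdft1 at 0.26, Idi1 at -0.041, Cyp51 at -0.31, Sqle at -0.69, Acat2 at -1.24 and Lss at -1.40. The value of Idi1 thus comes close to 0, and the middle of the 8 genes moves from -0.28 to -0.17.

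The rest of the synthesis pathway leaned lower too. Of 19 enzyme genes of the path from acetyl-CoA to cholesterol, 17 had a tested row of their own. In these rows 1 was called higher, 10 lower and 6 were not called, 64.7% called against the 51.0% of all tested rows. This list too was chosen with earlier results of these data known. All 17 had at least 1 FPKM in both conditions. Of the 11677 rows at that level, 2661 were called higher and 3668 lower, with the adjustment recomputed over them. Among the 10 enzymes other than the 7 already described, 0 were called higher (also 0 at an unadjusted p below 0.05), 6 were lower and 4 were not called, 60.0% called. The median log2 fold change over the 17 was -0.43, and 14 of 17 values were below 0. Tm7sf2 shares a row with 2 other genes and Mvd was not matched, so neither was used here.

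Among the early enzymes, Pmvk, phosphomevalonate kinase, went from 22.2 to 12.9 FPKM (log2 -0.78, q = 0.000185) per the authors' deposited table. Mvk, the kinase before it, stood at 11.0 and 9.18 FPKM (q = 0.15) per the authors' deposited table. Fdps, which makes farnesyl diphosphate, went from 49.9 to 28.3 FPKM (log2 -0.82, q = 0.000185) per the authors' deposited table. In these early steps, Hmgcs1 was higher while Acat2, Pmvk and Fdps were lower.

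After lanosterol, 5 of 8 enzymes fell and none was called higher, a count that is also 0 at an unadjusted p below 0.05. The share called was 62.5%, against 51.0% of all tested rows. Nsdhl, a sterol dehydrogenase, fell furthest of these, from 44.5 to 22.3 FPKM (log2 -0.9995, q = 0.000185) per the authors' deposited table. Msmo1, the methylsterol oxidase listed under its older symbol Sc4mol, had the highest attached level of the 17 enzymes and went from 141 to 104 FPKM (log2 -0.43, q = 0.000185) per the authors' deposited table. Lbr, a sterol reductase that also anchors chromatin at the nuclear envelope, went from 17.8 to 12.7 FPKM (q = 0.000355) per the authors' deposited table. Ebp, a sterol isomerase, went from 28.2 to 19.9 FPKM (q = 0.0354) per the authors' deposited table. Hsd17b7, Sc5d and Dhcr7 were not called, with log2 fold changes of -0.20, 0.12 and -0.25 per the authors' deposited table.

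**Figure D3:**
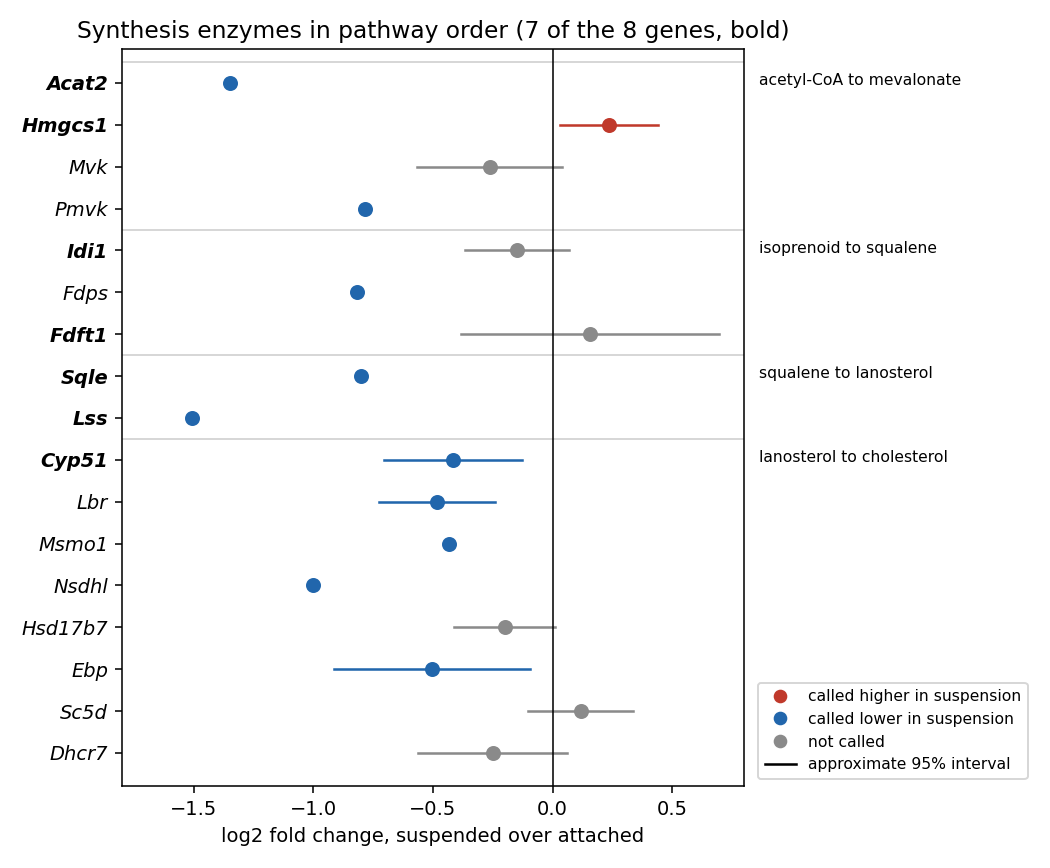
Log2 fold change (suspended over attached) of 17 synthesis enzymes with a tested row of their own, in pathway order, from the authors' deposited table; bars are approximate 95% intervals implied by the authors' p, absent where p is the smallest in the table, 5e-05. Hmgcs1 lies right of 0 at 0.24, both squalene-processing enzymes lie at -0.80 or below, and 7 of the 8 enzymes after lanosterol lie left of 0. Bars made from the authors' test score in place of their p would be wider.

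Of 7 genes that control SREBPs and have a tested row of their own, Insig1 included, 3 rose, 0 fell and 4 were not called, and at an unadjusted p below 0.05 the count was 4 higher and 0 lower. The share called, 42.9%, was below the 51.0% of all tested rows. Mbtps2, the second protease to cut SREBPs, shares a row with Yy2 and was left out of this count. That row was called lower, from 24.7 to 14.9 FPKM (log2 -0.73, q = 0.000831) per the authors' deposited table. Srebf2, which encodes SREBP2, went from 72.0 to 84.9 FPKM (log2 0.24, q = 0.0429) per the authors' deposited table. Mbtps1, the first Golgi protease to cut SREBPs, went from 26.9 to 35.7 FPKM (log2 0.41, q = 0.000982) per the authors' deposited table. Scap stood at 29.6 and 29.4 FPKM (q = 0.978) per the authors' deposited table, with an implied interval of -0.30 to 0.29. Its log2 fold change changes sign with scaling, from -0.0060 to 0.10 when centred. Srebf1, which encodes SREBP1, stood at 31.3 and 40.0 FPKM (q = 0.0884) per the authors' deposited table. Insig2, the partner of Insig1 that is not a classic SREBP2 target, stood at 64.4 and 52.9 FPKM (q = 0.167) per the authors' deposited table. Rnf139, a ubiquitin ligase of the endoplasmic reticulum, stood at 14.02 and 16.21 FPKM (q = 0.15) per the authors' deposited table.

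Among sterol transport genes, Stard4 and Tmem97 fell, whereas both genes of lysosomal sterol exit rose. Stard4, a carrier of sterols in the cytosol, and Tmem97 had log2 fold changes of -0.59 and -0.80 (q = 0.000185 for both) per the authors' deposited table. Npc1, which exports cholesterol from lysosomes, went from 11.9 to 29.5 FPKM (log2 1.31, q = 0.000185) per the authors' deposited table. Its partner Npc2 went from 46.0 to 60.1 FPKM (q = 0.000518) per the authors' deposited table. All 4 of these genes were called, 2 higher and 2 lower, where 24.7% of all tested rows were called higher and 26.3% lower.

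Among sterol export and storage genes, Abca1, Abcg1 and Soat1 rose. Abca1, which passes cholesterol to apolipoproteins, went from 0.227 to 1.72 FPKM (log2 2.92, q = 0.000185) per the authors' deposited table. Both values are low, and adding 1 FPKM to each gave Abca1 a log2 fold change of 1.15. Abcg1, a related exporter, went from 3.42 to 8.47 FPKM (log2 1.31, q = 0.000185) per the authors' deposited table. Soat1, which stores cholesterol as esters, went from 10.1 to 13.7 FPKM (q = 0.000982) per the authors' deposited table. Mylip, an LXR target, stood at 6.003 and 6.098 FPKM (q = 0.917) per the authors' deposited table. Nr1h2 and Nr1h3, which encode both LXRs, were not called, with q of 0.0952 and 0.0869 per the authors' deposited table. In this list 3 of 6 genes were called, all higher, and at an unadjusted p below 0.05 the count was 4 higher and 0 lower. The gene added there, Nr1h3, stood at only 0.258 FPKM attached and 0.597 suspended. Adding 1 FPKM to each took its log2 fold change from 1.21 to 0.34. A share of 3 in 6 called is close to the 51.0% of all tested rows.

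Fatty acid synthesis genes, which answer chiefly to SREBP1, fell in 7 of 10 cases and rose in none (1 at an unadjusted p below 0.05, Acss2). Of all tested rows 26.3% were called lower. Fads2, a desaturase, went from 82.2 to 37.6 FPKM (log2 -1.13, q = 0.000185) per the authors' deposited table. Scd2, a stearoyl-CoA desaturase, went from 173 to 94.7 FPKM, and Scd1, a close relative, from 40.7 to 23.0 FPKM (q = 0.000185 for both) per the authors' deposited table. Elovl6, a fatty acid elongase, went from 19.4 to 10.7 FPKM (log2 -0.86, q = 0.000185) per the authors' deposited table. Fasn, fatty acid synthase, went from 39.5 to 22.8 FPKM (q = 0.000518) per the authors' deposited table. Acly, which makes the cytosolic acetyl-CoA that both pathways use, stood at 99.4 and 94.8 FPKM (q = 0.707) per the authors' deposited table, and its log2 fold change turned from -0.068 to 0.041 when centred. The median of this list was -0.74, below the -0.43 of the cholesterol enzymes, a difference that was not tested.

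**Figure D4:**
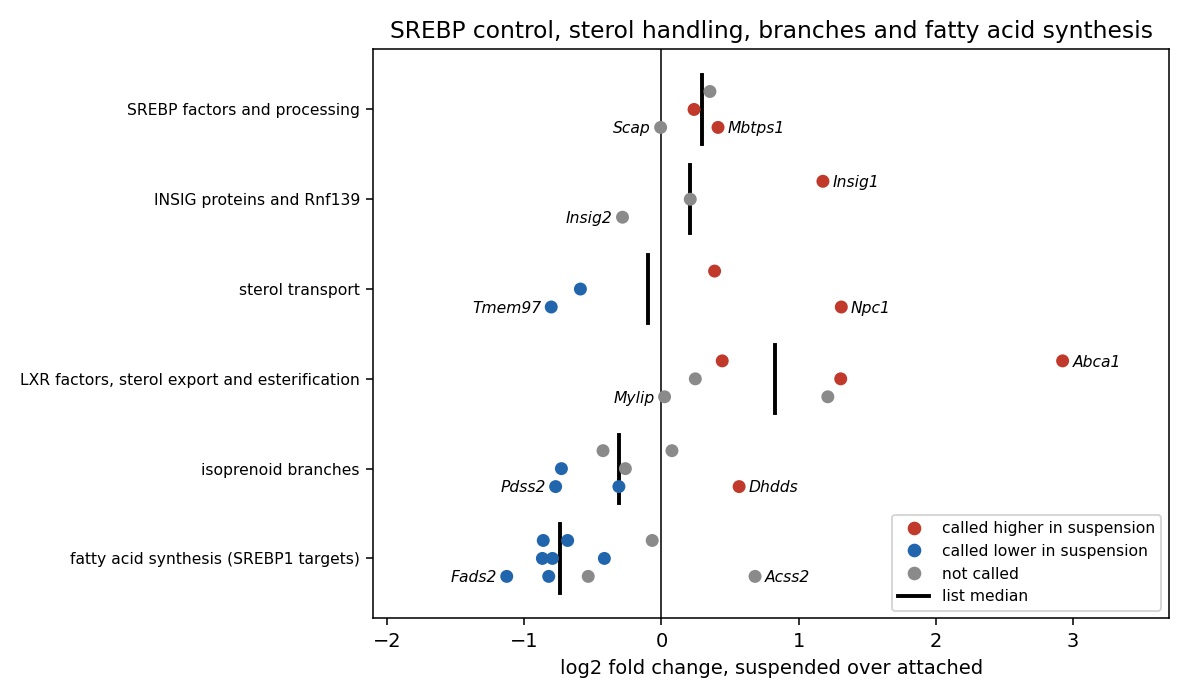
Log2 fold change (suspended over attached) per the authors' deposited table for genes of 6 related lists with a tested row of their own, with colours for the call and a black bar for each list's median; the lowest and highest gene of each list are named. Insig1 lies at 1.18, and the next highest gene of its list at 0.21, and fatty acid genes lie mostly left of 0.

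The labelled cell type was checked against its markers. All 5 epithelial markers (Cdh1, Epcam, Krt8, Krt18 and Krt19) were present, at 95.4 to 773 FPKM attached and 201 to 752 suspended per the authors' deposited table. Cdh1 was among them the 1 that moved over 2-fold, from 95.4 to 201 FPKM per the authors' deposited table. Of 14 markers of leukocytes, endothelium and fibroblasts, 12 were not tested by the authors and stood at 0.282 FPKM or less. The others, Ptprc (1.42 to 12.4 FPKM) and Pdgfra (0.155 to 1.81), were called higher per the authors' deposited table. The summed level went from 1.64 to 12.7 FPKM for the leukocyte list, from 0.353 to 0.298 for the endothelial list and from 0.223 to 1.95 for the fibroblast list, with Tyrobp and Col3a1 at 0 in both conditions per the authors' deposited table. Mitochondrial rows summed to 31198 FPKM attached and 68368 suspended. The part of these values in the changes of the 8 genes was not tested.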

How the data were processed

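Total RNA of mouse kidney epithelial cells was treated with DNase, and messenger RNA was sequenced on a HiSeq instrument, per the labels' protocols. The submitters' processing notes name TopHat, Bowtie, Cufflinks 1.0.3 and Cuffdiff with mm10; settings, annotation and strand: not given in the sources used here. Per gene and condition the authors deposited 1 FPKM, pooled over 3 libraries, read as attached (condition name ending in A) and suspended (ending in S). The deposited p-value, q-value, test score and log2 fold change are from the authors' own test, per the file headers. Log2 ratios made anew from the FPKM matched the deposited ones within 4e-05. The smallest deposited p-value, 5e-05, is shared by 4278 rows.

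No test on libraries was possible. Calls are the authors' q below 0.05, as deposited. The set of rows over which they adjusted is not given. Recomputed over the tested rows, 3673 were called higher and 3925 lower, against 3639 and 3885 with the deposited q. Standard errors and intervals are the log2 fold change divided by the normal quantile of the authors' p, and are given only where p is above its smallest value. At each synthesis enzyme with such a standard error, the log2 change per unit of test score was larger than it. The intervals may therefore be too narrow, and the reason for the difference was not tested. Row starts were made 1-based and compared with GENCODE M21 (GRCm38). Of 55 genes in 10 lists, 51 had a row of their own (1 under an older symbol), 3 share a row and 1 was not matched; some other genes of these pathways are not reported here and enter no list count. Promoters are from RefSeq (GRCm38.p6). The members and lists were chosen with earlier results of these data known, and the motif TCACNCCAC was added after the sequences were seen. All 8 genes are named, and of each list at least the called gene with the largest change in each direction, with others by value. Ctsb, Akap9, 4930483K19Rik and the copies Acat3 and Idi2 are named for their position or likeness. Genes of like pattern are not named, since 1 value per condition gives no pattern across samples. The adjustment code was tested on simulated data. Tools were pandas 2.3.3, matplotlib 3.10.9, SciPy 1.17.1, NumPy 2.4.6 and Python 3.11.15. Alternatives covered the threshold, a 2-fold minimum, the adjustment, a filter at 1 FPKM, pseudocounts of 1 and 0.1 and 2 scalings.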

Additional observations from a re-analysis of the deposited data

How the results depend on the processing

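The 8 genes kept the direction of their log2 fold change when centred and when rescaled, 2 scalings that apply nearly the same shift. The other alternatives could not reverse a direction. Recomputing the adjustment and requiring at least 1 FPKM in both conditions left the counts for the 8 genes and the synthesis list unchanged. Both reuse the authors' p-values, so they are no independent check. Pseudocounts of 1 and 0.1 kept the authors' q, so the counts under them could not change. At q below 0.01, 1 of the 8 genes was called higher and 3 lower (Hmgcs1 and Cyp51 were lost), and of the 17 enzymes 0 were called higher and 8 lower, while the SREBP factors had 1 higher call in place of 2. With a 2-fold minimum added, 1 of the 8 was called higher (Insig1) and 2 lower (Lss and Acat2), of the 17 enzymes 0 higher and 2 lower, and of all tested rows 1833 higher and 1050 lower, against 3639 and 3885 without it. The same minimum left, of the other lists' calls, 1 of 7 lower for fatty acid synthesis, 0 of 1 higher and 0 of 3 lower for isoprenoid branches, 0 of 2 higher for SREBP factors, 1 of 2 higher and 0 of 2 lower for sterol transport, and 2 of 3 higher for export. A stricter rule can only remove calls. The median of the 8 genes moved from -0.28 to -0.17 both when centred and when rescaled without mitochondrial rows and the 2 highest rows; q was not recomputed under these scalings, and Scap and Acly, not called, changed sign. Abca1 dropped out of the filter at 1 FPKM. No paired analysis was possible because the table holds 1 pooled value per condition. For the same reason leaving out each replicate was not run. Depth is unknown, and precision rests on the authors' p.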

Other observations

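The isoprenoid branches, which draw on the same mevalonate as cholesterol, moved in both directions. Of 7 genes with a tested row of their own, 1 was called higher, 3 lower and 3 were not called, with a median log2 fold change of -0.31 per the authors' deposited table. The share called, 57.1%, was near the 51.0% of all tested rows. Fntb shares a row and was left out. Pdss2, which helps to build the side chain of ubiquinone, went from 9.33 to 5.46 FPKM (log2 -0.77, q = 0.000185) per the authors' deposited table. Fnta, the alpha subunit of the enzymes that attach farnesyl and geranylgeranyl groups to proteins, went from 55.7 to 33.6 FPKM (log2 -0.73, q = 0.000185) per the authors' deposited table. The subunits of the enzyme that makes dolichol differed in direction: Dhdds went from 7.61 to 11.3 FPKM (log2 0.57, q = 0.00334) and Nus1 from 46.2 to 37.2 FPKM (log2 -0.31, q = 0.00933) per the authors' deposited table. Ggps1, Pdss1 and Pggt1b were not called, with q of 0.24, 0.595 and 0.644 per the authors' deposited table.

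Promoter windows were at hand for 16 of the 19 synthesis enzymes. CCAAT was in 14 of these 16 windows and 9 held at least 2, while 11.7% of all windows held at least 2. GGGCGG was in 15 of 16, and TCACNCCAC in that of Hmgcs1 alone among the 16. These are letter counts in windows of 1 length, with no test and no matching of the other windows for expression or base content.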
